A study of Mus musculus with 15 samples.

Results

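The mRNAs of the large (60S) subunit of the cytosolic ribosome were followed by ribosome profiling in mouse embryonic stem cells (mESCs). They are the 45 of 21727 transcripts in the count table whose symbol is Rpl with a number and an optional a, or *Rplp0*, *Rplp1* or *Rplp2*, with 1 symbol of this form left out. The 15 libraries hold ribosome-protected fragments (RPFs), the stretches of mRNA that a ribosome shields from nuclease, of E14Tg2a.4 cells, an mESC line, grown with leukemia inhibitory factor on gelatin and treated with 100 µg/mL cycloheximide, which halts elongation, before lysis. The 3 WT clones gave total RPFs only. In the *Rps27-FLAG* line (labelled eS27-FLAG) and the *Rps27l-FLAG* line (labelled eS27L-FLAG), FLAG epitope tags had been inserted by CRISPR at the end of the coding sequence of the endogenous gene on both alleles, and 3 clones of each gave total RPFs and RPFs of ribosomes captured by anti-FLAG immunoprecipitation (IP RPFs). Each replicate is an independently selected clone, so a line is known here from 3 clones, and each clone of a tagged line contributed both fractions. No IP from untagged cells is among these libraries. The design asks whether ribosomes with either small-subunit paralog hold the mRNAs of their large-subunit partners in the same proportion as all ribosomes of the cell do, and whether tagging changed the translation of these mRNAs.

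The large subunit joins amino acids at its peptidyl transferase centre, passes the growing chain through an exit tunnel, and recruits elongation factors through the proteins of its GTPase stalk. Cells make its proteins in about equal numbers, and most of their mRNAs begin with a 5′ terminal oligopyrimidine (TOP) tract, a C followed by pyrimidines, through which mTORC1 signalling and LARP1 tune translation of the whole set. Each protein is encoded by a functional gene accompanied by many processed pseudogenes, so that a short fragment may match several places. RPFs of an mRNA count ribosomes on it, so in bulk cultures a change may reflect more ribosomes per mRNA or more mRNA, and fewer cells of a kind and less RNA per cell cannot be told apart.

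Library totals ranged from 3972152 to 8064166 counts, and the IP RPF libraries (3972152 to 6673935) were smaller than most total RPF libraries. The 8 mESC markers were all detected, with a summed level of 3568 to 4326 CPM (counts scaled to a common normalized library total). Fibroblast markers (4 genes) summed to 8.93 to 33.1 CPM, with *Postn* at a median of 0, endoderm markers (4 genes) to 1.6 to 14.5 CPM, and neural markers (2 genes) to 2.59 to 22.4 CPM. Of the tagged genes, *Rps27* was listed at 0 counts in all 15 libraries, and *Rps27l* had 655 to 1151 counts per library, so neither count checks the tag.

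The authors kept uniquely aligned reads only, so it was checked how much of each member is unique. Of 28-nt windows along each coding sequence (CDS), every window was unique among the transcripts of the table in 24 members, and 1 member had none. With up to 2 mismatches allowed, 22 members were fully unique and 7 had no unique window. Against the 13476 transcripts that GENCODE M21 annotates as pseudogenes, 39 of the 45 members had a near match for every window. The exceptions ranged from *Rpl8*, with 16.9% of its windows matched, to *Rplp1*, with 99.4%.

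At up to 2 mismatches the 5 untested members all shared a large part of their windows with a named copy, as did tested members. *Rpl14* shared 607 of 624 windows (198 to 387 counts), *Rpl32* 349 of 378 (1010 to 1462 counts) and *Rpl7a* 604 of 771 (2100 to 3412 counts). With exact matching 86.8% of the windows of *Rpl35*, 84.7% of *Rpl9* and 72.5% of *Rpl13a* were unique. The part of shared windows in the low counts was not tested. *Rpl10*, which helps to close the peptidyl transferase centre late in subunit assembly, and *Rpl13a* had 0 counts in every library. By counting error alone 0 allows at most 3 counts, or 0.372 to 0.755 CPM depending on the library. This limit covers only reads that align uniquely. *Rpl10* had no unique window even with exact matching, so the limit does not bound its level. *Rpl29* had 8 to 26 counts, *Rpl9* had 9 to 27, and *Rpl35*, at the tunnel exit, had 6 to 20. All 615 windows of *Rpl10* matched *Rpl10-ps3*, which was at 0 counts too, 508 of 582 windows of *Rpl13a* matched *Rpl13a-ps1* (2 to 17 counts), and 449 of 453 windows of *Rpl29* matched *Gm3550* (10 to 24 counts). *Rpl9* shared 443 of 549 windows with *Rpl9-ps1* (0 to 3 counts), and *Rpl35* shared 189 of 342 with *Gm49368* (0 to 1 counts). The stalk protein *Rplp2*, which passed the filter with 45 to 91 counts, shared all 318 windows with *Wdr89*, which had more counts (109 to 281) and carries the match downstream of its own CDS. The windows below are matches of member and copy on GRCm38, each the first among those of the counted codons with the most mismatches up to the limit. Pairs were sought only up to 2 mismatches, so they do not show how far member and copy differ elsewhere. Differing bases are in capitals, and the span of each transcript follows its name.
Rpl10, chrX:74270812-74273135, plus strand: ccatacccaaagtctcgtttctgccgtg
Rpl10-ps3, chr9:50344201-50344968, minus strand: ccatacccaaagtctcgtttctgccgtg
Rpl9, chr5:65388364-65391444, minus strand: ttGtgaagggccccagggggactctgcG
Rpl9-ps1, chr11:83645046-83645621, minus strand: ttAtgaagggccccagggggactctgcA
Rpl35, chr2:39001580-39005624, minus strand: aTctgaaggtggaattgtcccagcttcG
Gm49368, chr7:128062683-128128160, plus strand: aCctgaaggtggaattgtcccagcttcC
Rplp2, chr7:141447370-141451585, plus strand: gcgccaaagacatcaagaaaatactagA
Wdr89, chr12:75630596-75669537, minus strand: gcgccaaagacatcaagaaaatactagG

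Footprint density, the normalized CPM of the total RPFs divided by the number of counted codons, put members of unequal length on a common scale. In WT clones *Rpl38*, at the tunnel exit, was highest with 6.98, 7.36 and 7.06 CPM per codon (7.13 ± 0.20, SD, n = 3), followed by the bridge protein *Rpl41* (6.94 ± 0.36), *Rpl19* at the tunnel exit (6.58 ± 0.15) and the bridge protein *Rpl23* (6.46 ± 0.32). These 4 overlapped with their neighbours in the order, and the value of *Rpl41* rests on 5 counted codons. The median of all tested transcripts was 0.0761 CPM per codon, and 99.7% of them lay below the median of the fully unique members (5.70 CPM per codon).

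Among the 22 fully unique members, 20 lay between 3.83 ± 0.17 (*Rplp0*, the base of the GTPase stalk) and 7.13 CPM per codon, a 1.86-fold range, with a median coefficient of variation of 2.93% over the WT clones. *Rpl12*, which sits beside *Rplp0* at the stalk base, was at 4.55 ± 0.18, *Rpl11* at 4.85 ± 0.07 and *Rpl5* at 5.36 ± 0.17 CPM per codon; *Rpl5* and *Rpl11* carry 5S rRNA into the subunit as the 5S RNP. The exceptions, named here after their values were seen, were *Rpl31* (0.352 ± 0.029 CPM per codon, 187 to 287 counts) and *Rpl37a* (0.0571 ± 0.021 CPM per codon, 19 to 39 counts), whose every window was shared with an annotated pseudogene, as was that of *Rpl38*. The part of shared windows and of other properties in these densities was not tested.

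The 23 members with shared windows had a median density of 0.350 CPM per codon, from 0 to 5.68 (*Rpl8*, near the peptidyl transferase centre). The lowest 4 were *Rpl10* and *Rpl13a* at 0, *Rpl9* at 0.0190 ± 0.0029 and *Rpl29* at 0.0214 ± 0.0030 CPM per codon. The stalk proteins *Rplp1* (0.317 ± 0.030) and *Rplp2* (0.112 ± 0.028), which form dimers on *Rplp0*, lay far below their partner in this group. In the order of all members, 11 of 44 neighbouring pairs did not overlap between their 3 WT clones.

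The members together took 2.49%, 2.54% and 2.54% of the counts in the WT total libraries. The share was 2.39%, 2.51% and 2.71% in the *Rps27-FLAG* total libraries and 2.52%, 2.42% and 2.59% in the *Rps27l-FLAG* total libraries. These 3 groups overlapped. In the IP RPFs the share was 2.60%, 2.93% and 3.07% for *Rps27-FLAG* and 2.92%, 3.05% and 3.03% for *Rps27l-FLAG*, above the total RPFs of the same clone in 6 of 6 clones. The ratio of IP to total share was 1.08, 1.17 and 1.13 in the *Rps27-FLAG* clones and 1.16, 1.26 and 1.17 in the *Rps27l-FLAG* clones. The Wilson 95% interval of a library's share spans at most 0.0168 percentage points to either side and covers counting error only, so the spread between clones is larger than counting error.

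**Figure D1:**
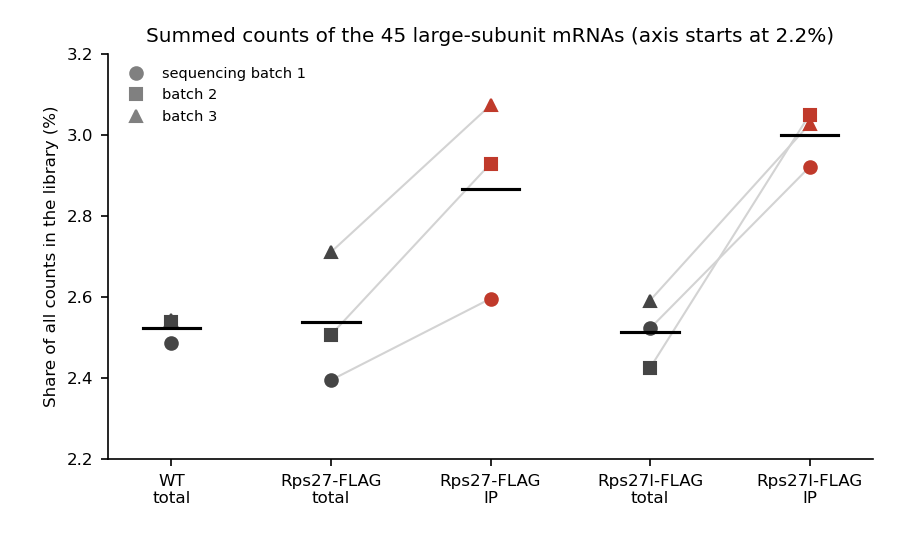
Percent of each library's counts that fell on the members, per library (points) with the mean of the 3 clones of each group (bar), and with lines joining the libraries that come from 1 clone. The axis does not start at 0. Each of the 6 tagged clones has a higher share in its IP RPFs than in its total RPFs, and the 3 groups of total RPFs overlap.

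Tagging either paralog left no member past the threshold in total RPFs. With edgeR's quasi-likelihood test, 0 of the 40 tested members differed at an adjusted p under 0.05 in *Rps27-FLAG* over WT, *Rps27l-FLAG* over WT or *Rps27l-FLAG* over *Rps27-FLAG*, against 0.00% of all 10085 tested transcripts in each comparison. At an unadjusted p under 0.05 there were 0 members in each comparison, against 2.92%, 5.69% and 5.75% of all transcripts, and voom with limma and DESeq2 called 0 members as well. The replicate number, which also marks the sequencing batch, raised the calls over all transcripts to 0.00992%, 1.43% and 1.36% when fitted as a block, with 0 members among them. The median log2 fold change of the members was 0.01, -0.04 and -0.05, with a median SE of 0.07 and a highest of 0.29. A call over 10085 transcripts needs a difference of several SE. Differences of the size of these errors, or somewhat larger, were therefore not detectable.

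In *Rps27-FLAG* over WT total RPFs, the lowest members were *Rpl41* (log2 fold change -0.19, SE 0.10), *Rpl37* (-0.16) and *Rpl36a* (-0.15), and the highest were *Rpl17* and *Rpl35a* (both 0.06) and *Rpl23* (0.05). *Rpl41* was the only member whose clones did not overlap in this comparison, where 4.43% of all transcripts lay lower and 4.10% higher in this way. Its normalized CPM was 36.8, 33.7 and 33.6 in WT and 30.9, 28.9 and 31.8 in *Rps27-FLAG*, and 35.9, 30.3 and 32.6 in *Rps27l-FLAG*, which overlapped with both. In *Rps27l-FLAG* over WT total RPFs, *Rpl26* (-0.24, SE 0.25), *Rpl37* (-0.22) and *Rplp2* (-0.19) were lowest and *Rpl17* (0.06), *Rpl39* (0.03) and *Rpl31* (0.02) highest. Between the tagged lines the values of *Rps27l-FLAG* over *Rps27-FLAG* ran from *Rplp2* (-0.24, SE 0.29), *Rpl26* (-0.22) and *Rpl30* (-0.10) to *Rpl41* (0.11), *Rpl37a* (0.05) and *Rplp1* (0.03). At the lower ends all but *Rpl30* had at most 277 counts in any library. In both comparisons of *Rps27l-FLAG* 0 members lay apart without overlap, against 4.79% of all transcripts higher and 4.86% lower over WT, and 5.74% higher and 5.79% lower over *Rps27-FLAG*.

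Of the GTPase stalk and the 5S RNP 0 of 6 members passed the test in total RPFs. Over WT, the *Rps27-FLAG* values were 0.02 for *Rplp0*, -0.04 for *Rplp1*, 0.05 for *Rplp2*, -0.00 for *Rpl12*, 0.05 for *Rpl5* and 0.02 for *Rpl11* on the log2 scale. The *Rps27l-FLAG* values were -0.05 for *Rplp0*, -0.01 for *Rplp1*, -0.19 for *Rplp2* (SE 0.29), -0.05 for *Rpl12*, -0.02 for *Rpl5* and 0.00 for *Rpl11*. Between the tagged lines they were -0.07 for *Rplp0*, 0.03 for *Rplp1* (SE 0.11), -0.24 for *Rplp2* (SE 0.29), -0.05 for *Rpl12*, -0.06 for *Rpl5* and -0.02 for *Rpl11*, with SE of 0.06 to 0.07 for the members with none given.

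In IP over total RPFs the members lay above the bulk of the transcriptome in both tagged lines, and members passed the test in *Rps27l-FLAG*. Removing the trend with CDS length, described further on, left 0 of these calls without the clone as a block and took the median in *Rps27-FLAG* from 0.20 to 0.05. In *Rps27l-FLAG* 22 of the 40 members (55%) rose in the IP RPFs and 0 fell, against 0.833% of all tested transcripts that rose and 2.27% that fell. The 22 rose by 0.25 to 0.37 on the log2 scale, with adjusted p from 0.0172 to 0.047 (edgeR's quasi-likelihood test). They included *Rpl10a* of the L1 stalk, *Rpl11* of the 5S RNP, *Rpl12* of the GTPase stalk, the tunnel exit proteins *Rpl19*, *Rpl23a* and *Rpl38*, the bridge proteins *Rpl23* and *Rpl30*, *Rpl8* near the peptidyl transferase centre, and *Rpl6*, *Rpl7*, *Rpl7a*, *Rpl13*, *Rpl15*, *Rpl18*, *Rpl27*, *Rpl27a*, *Rpl28*, *Rpl34*, *Rpl35a* and *Rpl36*. All 40 members had a value above 0, the median was 0.31 against -0.03 for all transcripts, and in 30 members the 3 IP libraries lay above the 3 total libraries, as in 9.24% of all transcripts, and in 0 members below them, as in 13.9% of all transcripts. At an unadjusted p under 0.05 there were 29 members, against 17.4% of all transcripts.

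The calls depended on clones, on the pairing and on the length correction. With the clone as a block 32 of 40 members rose and 0 fell, against 12% and 19.0% of all transcripts. Without the block, leaving out replicate 1 or replicate 2 of *Rps27l-FLAG* gave 0 members (0.00% of all transcripts), and leaving out replicate 3 gave 22 (3.16%). With the block these 3 settings gave 29 to 31 members (23.8% to 24.9% of all transcripts).

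In *Rps27-FLAG* 0 of 40 members passed the threshold without the block, against 0.337% of transcripts that rose and 5.34% that fell, and 5 had an unadjusted p under 0.05, against 22.1% of all transcripts. With the clone as a block 29 members rose and 2 fell (*Rpl5* and *Rpl24*), against 18.3% and 22.9% of all transcripts. The median was 0.20 against -0.01 for all transcripts, and 37 of 40 members had a value above 0. The IP and total libraries of this line overlapped for all members except *Rplp1*, while 11.4% of all transcripts lay higher and 16.9% lower without overlap. Leaving out replicate 1, the clone with the lowest IP over total values for most members, gave 25 members without the block (18% of all transcripts). Without either of the other two clones there were 0 (0.00%).

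The median of the members' log2 ratio of IP to total RPFs was 0.11, 0.27 and 0.22 in the *Rps27-FLAG* clones 1, 2 and 3 and 0.24, 0.40 and 0.26 in the *Rps27l-FLAG* clones. The ratio was above 0 in all 3 clones for 30 of 40 members in *Rps27-FLAG* (28.9% of all transcripts) and for 36 of 40 in *Rps27l-FLAG* (23.7% of all transcripts). It was below 0 in all 3 clones for 1 member in *Rps27-FLAG*, *Rpl5* (32.9% of all transcripts), and for 0 members in *Rps27l-FLAG* (31.7% of all transcripts).

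**Figure D2:**
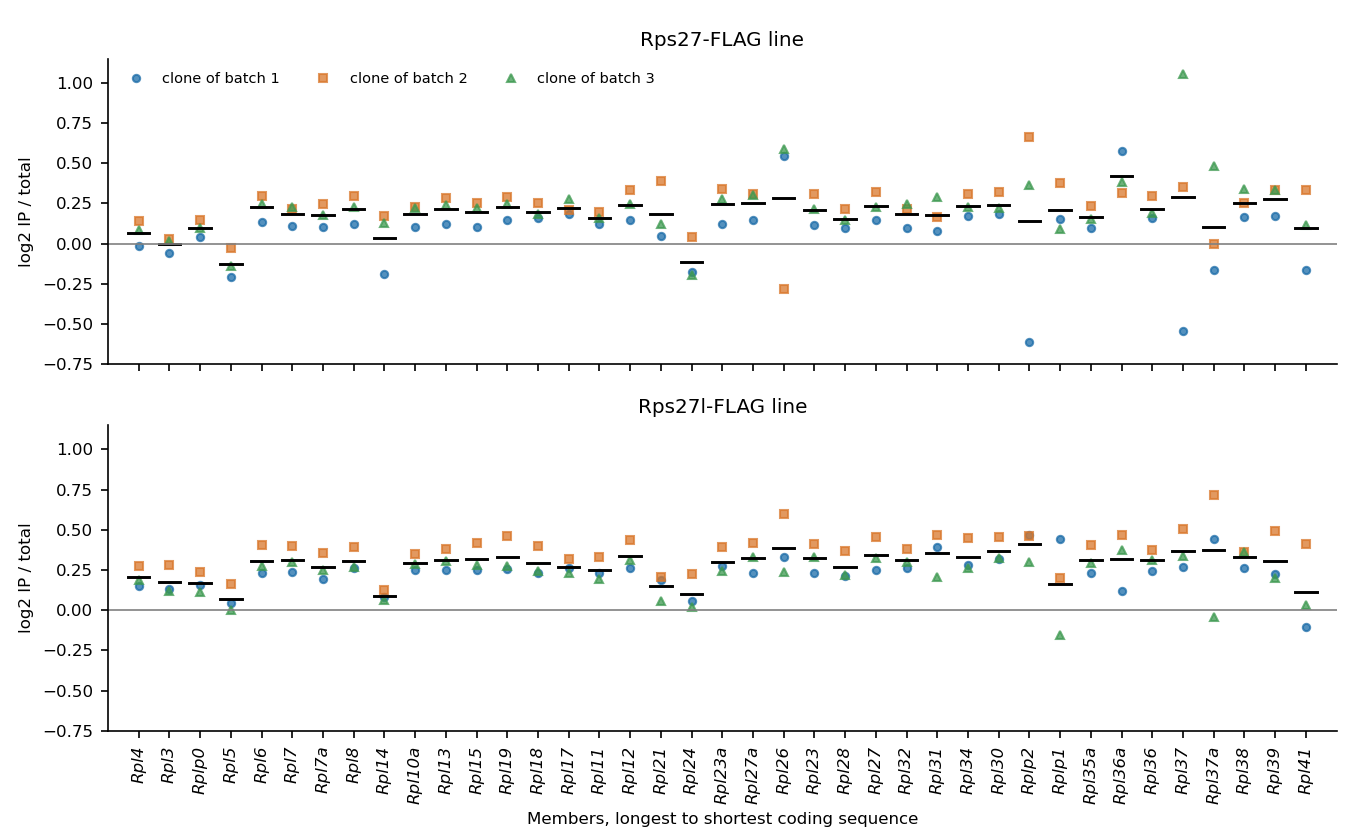
Log2 ratio of IP to total RPFs of 39 tested members in each clone of *Rps27-FLAG* (top) and *Rps27l-FLAG* (bottom), with the mean of the 3 clones as a bar, the members from longest to shortest CDS and a line at 0. Most points lie above 0 in both lines, and *Rpl5* lies below 0 in all 3 *Rps27-FLAG* clones.

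Of the GTPase stalk, the abundant members are described first. *Rplp0* had normalized CPM of 1095, 1155 and 1215 in total and 1126, 1277 and 1303 in IP RPFs of *Rps27-FLAG*, and 1093, 1028 and 1189 against 1219, 1210 and 1285 in *Rps27l-FLAG*. The groups overlapped in the first line and not in the second, with log2 fold changes of 0.10 (SE 0.08, adjusted p = 0.501) and 0.17 (SE 0.06, adjusted p = 0.202) by edgeR's quasi-likelihood test, and with the clone as a block both passed (adjusted p = 0.00565 and 5.6e-07). *Rpl12* had 618, 659 and 698 against 686, 829 and 827 in *Rps27-FLAG*, and 633, 604 and 673 against 758, 818 and 836 in *Rps27l-FLAG*. Its log2 fold changes were 0.25 (adjusted p = 0.156) and 0.34 (adjusted p = 0.0233) in edgeR. So 1 of 4 stalk members rose, in *Rps27l-FLAG*, against 0.833% of all transcripts. With the block *Rpl12* rose in *Rps27-FLAG* too (adjusted p = 1.4e-14). *Rplp1* was at 0.21 and 0.18, with adjusted p of 0.0319 and 0.0846 with the block, and *Rplp2*, with 45 to 91 counts, had clone ratios from -0.61 to 0.67 in *Rps27-FLAG* and from 0.30 to 0.47 in *Rps27l-FLAG* (adjusted p = 0.308 and 0.035 with the block).

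The 5S RNP members differed from each other. *Rpl11* had IP over total ratios of 0.12, 0.20 and 0.16 in the *Rps27-FLAG* clones and 0.23, 0.33 and 0.19 in the *Rps27l-FLAG* clones on the log2 scale, and it rose in *Rps27l-FLAG* (0.25, SE 0.04, adjusted p = 0.0239 in edgeR) and, with the block, also in *Rps27-FLAG* (0.16, adjusted p = 8.1e-07). *Rpl5* had ratios of -0.21, -0.03 and -0.14 in *Rps27-FLAG* and 0.05, 0.16 and -0.00 in *Rps27l-FLAG*, the lowest fitted value of all members in both lines (-0.12 and 0.07). *Rpl6*, of nearly the same CDS length (888 nt against 891 nt), was at 0.23 and 0.30. With the clone as a block *Rpl5* fell in *Rps27-FLAG* (-0.12, adjusted p = 2.4e-04) and rose in *Rps27l-FLAG* (0.07, adjusted p = 0.0419).

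At the tunnel exit *Rpl38* had 327, 361 and 376 CPM in total and 366, 431 and 476 in IP RPFs of *Rps27-FLAG*, and 345, 348 and 356 against 415, 447 and 457 in *Rps27l-FLAG*. The groups overlapped in the first line (log2 fold change 0.26, adjusted p = 0.19) and lay apart in the second (0.33, adjusted p = 0.0202, edgeR's quasi-likelihood test). Of the 5 tested tunnel exit members 0 rose in *Rps27-FLAG* and 3 in *Rps27l-FLAG*, with medians of 0.25 and 0.33. With the block 3 and 4 of them rose. For this and the counts that follow, 0.337% and 0.833% of all transcripts rose without the block, and 18.3% and 12% with it. The exit tunnel wall (*Rpl4*, *Rpl17* and *Rpl39*) had 0 calls in both lines without the block and 2 and 3 with it. Of the 4 bridge proteins *Rpl23* and *Rpl30* rose in *Rps27l-FLAG*, whereas *Rpl24* was at -0.11 in *Rps27-FLAG* and 0.10 in *Rps27l-FLAG* and *Rpl41* at 0.10 and 0.11. *Rpl30* had 199, 200 and 227.1 CPM in total and 248, 274 and 285 in IP RPFs of *Rps27l-FLAG*, without overlap. Of the 19 tested members with no role on these lists 0 rose in *Rps27-FLAG* and 13 in *Rps27l-FLAG*, with medians of 0.20 and 0.31, and with the block 16 and 15 rose. Among them *Rpl6* had 1475, 1413 and 1509 CPM in total and 1733, 1868 and 1828 in IP RPFs of *Rps27l-FLAG*, which did not overlap. The ends of the order were *Rpl36a* (0.41, SE 0.19), *Rpl37* (0.38, SE 0.39) and *Rpl26* (0.30, SE 0.32) against *Rpl5* (-0.12), *Rpl24* (-0.11) and *Rpl3* (-0.00) in *Rps27-FLAG*. In *Rps27l-FLAG* they were *Rplp2* (0.38, SE 0.29), *Rpl26* (0.37, SE 0.22) and *Rpl30* (0.37, SE 0.08) against *Rpl5* (0.07), *Rpl14* (0.09) and *Rpl24* (0.10). At the high ends all but *Rpl30* had at most 217 counts in any library.

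Members were short, and over the transcriptome IP over total values lay lower for longer CDS. The tested members had CDS of 75 to 1257 nt and a median of 469.5 nt, while the median of all tested transcripts was 1440 nt. Across the 40 members, which share libraries and are not independent, Spearman's rho between CDS length and log2 fold change was -0.41 in *Rps27-FLAG* and -0.46 in *Rps27l-FLAG*. Over the 22 fully unique members rho was -0.20 and -0.46. With the length trend removed from each library and the clone as a block, 12 members rose and 2 fell in *Rps27-FLAG* (18.1% and 13% of all transcripts), with a median of 0.05. In *Rps27l-FLAG* 28 rose and 0 fell (14.3% and 7.85% of all transcripts), with a median of 0.19. Without the block the corrected fit called 0 members in both lines, against 0.278% of all transcripts in *Rps27-FLAG* and 0.0893% in *Rps27l-FLAG*.

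**Figure D3:**
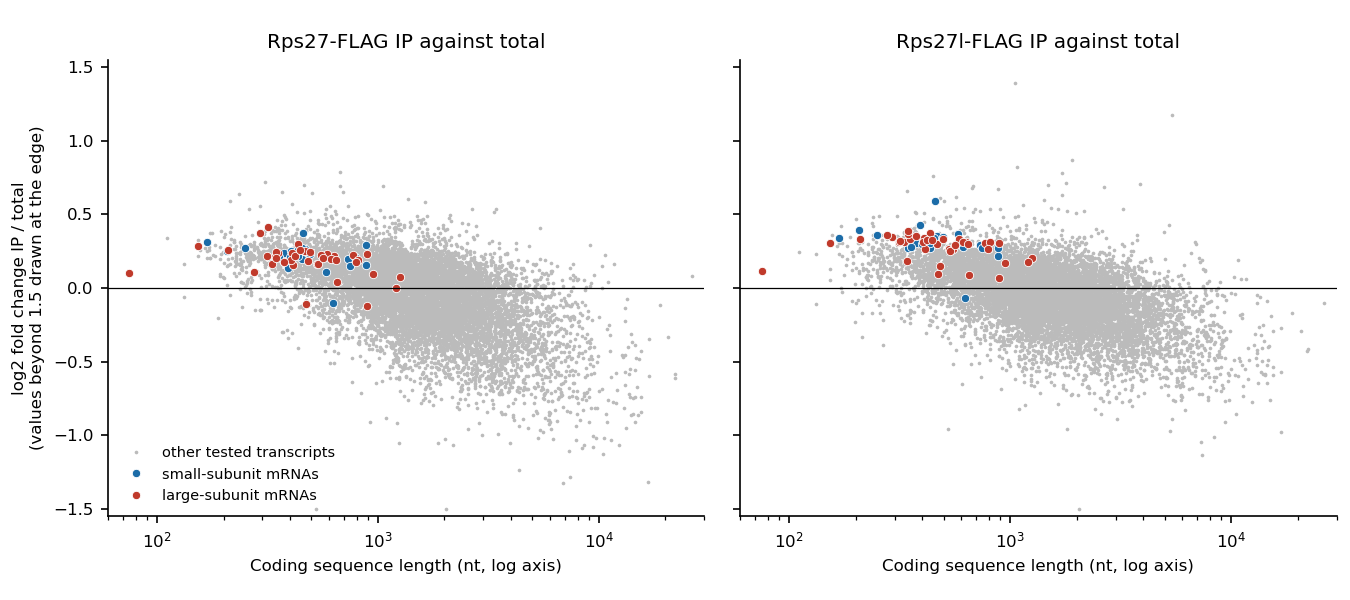
Log2 fold change of IP over total RPFs against CDS length (log axis) for the members (red), the small-subunit mRNAs (blue) and all other tested transcripts (grey), in *Rps27-FLAG* and *Rps27l-FLAG*. The members lie at the short end, with a median of 469.5 nt, and their median value is 0.20 in *Rps27-FLAG* and 0.31 in *Rps27l-FLAG*.

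Other measures moved with the fraction as well. The summed level of the 8 mESC markers was 4083 to 4326 CPM in the IP RPFs and 3568 to 3856 CPM in the total RPFs, without overlap, and each clone had a smaller IP than total library. The summed levels of the fibroblast, endoderm and neural markers overlapped between the fractions. The part of marker levels and depth in the IP values was not tested. The proteins of the small subunit, to which both tagged paralogs belong, had medians of 0.22 and 0.31 over 28 tested transcripts, with 0 calls in *Rps27-FLAG* and 16 in *Rps27l-FLAG* (24 and 25 with the block). Of 18 tested mRNAs of elongation factors and other TOP genes 1 rose in *Rps27-FLAG* and 7 in *Rps27l-FLAG* (15 and 16 with the block). Their medians without the block were 0.18 and 0.22. Of 39 tested 60S assembly factors 1 rose and 2 fell in the first line and 0 rose and 2 fell in the second. With the block 16 of these factors rose and 12 fell in the first line, and 15 rose and 10 fell in the second. Of all transcripts 0.337% and 0.833% rose without the block, and 18.3% and 12% with it. The shares that fell were 5.34% and 2.27% without the block, and 22.9% and 19.0% with it.

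The IP effects of the lines were then compared directly, in a fit of the same 12 IP and total libraries with the clone as a term. In 4 of 40 members the IP over total value was higher in *Rps27l-FLAG* than in *Rps27-FLAG* and in 0 it was lower, against 1.36% and 0.139% of all tested transcripts. They were *Rpl5*, *Rpl3*, which reaches towards the peptidyl transferase centre, *Rpl24*, which forms a bridge to the small subunit, and *Rpl35a*, whose human counterpart is mutated in some patients with Diamond-Blackfan anaemia. In *Rps27-FLAG* the fitted IP over total value was -0.12 for *Rpl5*, -0.00 for *Rpl3*, -0.11 for *Rpl24* and 0.17 for *Rpl35a*, and in *Rps27l-FLAG* it was 0.07, 0.18, 0.10 and 0.31. The comparison uses the libraries of the preceding ones and is not independent of them.

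*Rpl5* (chr5:107900502-107909005, plus strand, GRCm38, 8 exons) had normalized CPM of 1384, 1520 and 1690 in total and 1200, 1490 and 1537 in IP RPFs of *Rps27-FLAG*. In *Rps27l-FLAG* it had 1453, 1424 and 1515 in total and 1500, 1596 and 1513 in IP RPFs. The 3 clone ratios of *Rps27-FLAG* all lay below those of *Rps27l-FLAG*, and the difference of the IP effects was 0.19 on the log2 scale (SE 0.04, adjusted p = 9.2e-04, edgeR's quasi-likelihood test). It kept its side of the threshold when each clone was left out in turn.

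*Rpl3* (chr15:80077791-80083406, minus strand, 10 exons) had 1827, 1991 and 2122 CPM in total and 1752, 2035 and 2146 in IP RPFs of *Rps27-FLAG*. In *Rps27l-FLAG* it had 1934, 1884 and 2035 CPM in total and 2116, 2292 and 2214 in IP RPFs. The clone ratios were -0.06, 0.03 and 0.02 in the first line and 0.13, 0.28 and 0.12 in the second, again without overlap, and the difference was 0.18 (SE 0.04, adjusted p = 0.00173 in edgeR). It missed the threshold without replicate 2 of *Rps27l-FLAG* (0.13, adjusted p = 0.0903).

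*Rpl24* (chr16:55966275-55971435, plus strand, 6 exons) had 132, 143 and 162 CPM in total and 117, 147 and 142 in IP RPFs of *Rps27-FLAG*, and 138, 131 and 156 in total and 143, 153 and 158 in IP RPFs of *Rps27l-FLAG*. Its clone ratios were -0.18, 0.04 and -0.20 against 0.06, 0.23 and 0.02 and overlapped, while between clones with the same number they differed by 0.23, 0.19 and 0.22. The difference was 0.21 (SE 0.06, adjusted p = 0.0414 in edgeR). It missed the threshold without replicate 2 of *Rps27l-FLAG* (adjusted p = 0.335) and without replicate 1 (adjusted p = 0.256) or replicate 3 (adjusted p = 0.278) of *Rps27-FLAG*. Of its 444 windows 369 matched *Gm28037*, which was at 0 counts.

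*Rpl35a* (chr16:33056453-33060189, plus strand, 5 exons) had 490, 567 and 618 CPM in total and 526, 666 and 688 in IP RPFs of *Rps27-FLAG*. In *Rps27l-FLAG* it had 515, 505 and 562 CPM in total and 605, 667 and 689 in IP RPFs. Its clone ratios were 0.10, 0.23 and 0.16 against 0.23, 0.40 and 0.29, with a small overlap. Between clones with the same number they differed by 0.13, 0.17 and 0.14, and the fitted difference was 0.15 (SE 0.04, adjusted p = 0.0415 in edgeR). It missed the threshold without replicate 2 (adjusted p = 0.36) or replicate 3 (adjusted p = 0.128) of *Rps27l-FLAG* and without replicate 1 (adjusted p = 0.252) or replicate 3 (adjusted p = 0.197) of *Rps27-FLAG*.

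Over the 40 members the median difference was 0.10, 37 lay above 0 and 24 had an unadjusted p under 0.05, against 12.1% of all transcripts. The clone ratios did not overlap between lines for 7 members (*Rpl3*, *Rpl4*, *Rpl5*, *Rpl7*, *Rpl10a*, *Rpl30* and *Rpl32*), with 0 lower, against 9.07% of all transcripts higher and 7.13% lower in this way. The ends of the order were *Rpl37a* (0.28, SE 0.33), *Rplp2* and *Rpl24* (both 0.21) against *Rpl36a* (-0.12, SE 0.13), *Rpl21* (-0.03) and *Rplp1* (-0.01). *Rplp0* was at 0.07, *Rpl12* and *Rpl11* at 0.09. Of the other lists, 0 of 28 small-subunit proteins, 4 of 18 elongation and TOP mRNAs and 2 of 39 assembly factors were higher in *Rps27l-FLAG*, and 0 of these lists' transcripts were lower. The median differences of these lists were 0.093, 0.064 and 0.0059, against 0.095 for the members, so the small-subunit mRNAs lay close to the members. Of all transcripts 1.36% were higher and 0.139% lower.

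The number of calls in this comparison moved with single clones and settings. Without replicate 1, 2 or 3 of *Rps27l-FLAG* 5, 1 (*Rpl5*) and 3 members passed, against 1.02%, 1.10% and 0.972% of all transcripts. Without replicate 1, 2 or 3 of *Rps27-FLAG* 2, 9 and 2 passed, against 0.982%, 1.48% and 0.853%. Without the clone term 0 members passed (0.00% of all transcripts), and 0 had an unadjusted p under 0.05, while DESeq2 called 2 (0.357% of all transcripts) and removal of the length trend 10 (1.08% of all transcripts higher and 0.278% lower). A fit with an IP effect for each sequencing batch called 19 (3.17% of all transcripts). None of the 4 differences exceeded 0.25 on the log2 scale, the limit that the paper set for its own list of this comparison.

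**Figure D4:**
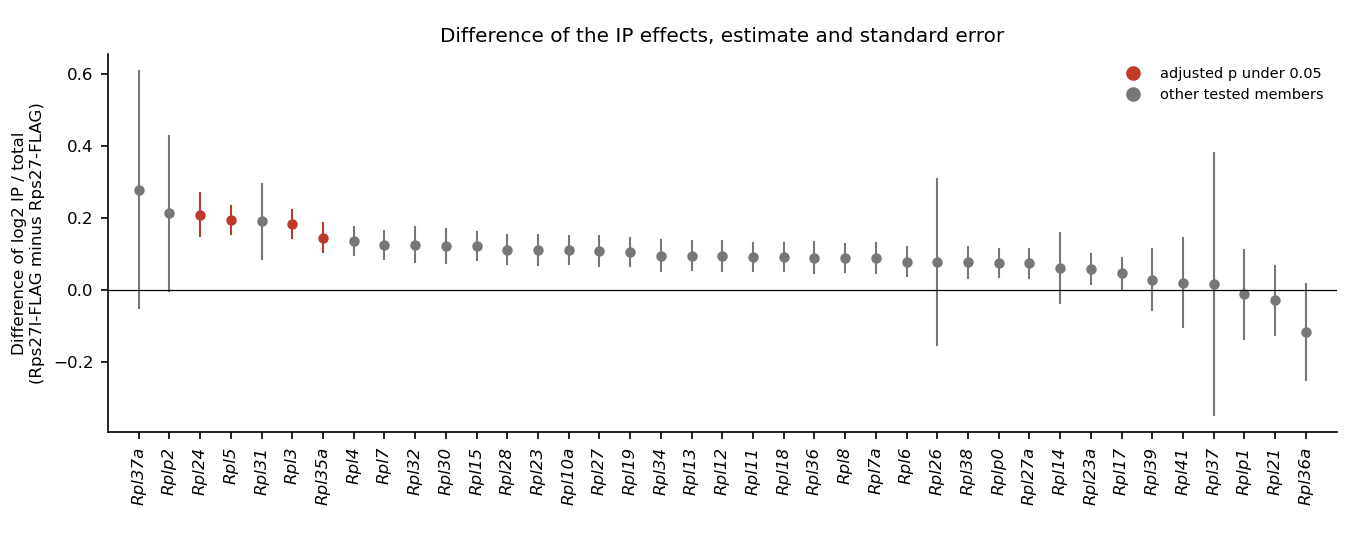
Difference of the log2 IP effects, *Rps27l-FLAG* minus *Rps27-FLAG*, for 39 tested members (points, with bars of 1 SE), in order of the value, with the members at an adjusted p under 0.05 coloured. *Rpl5*, *Rpl3*, *Rpl24* and *Rpl35a* lie at 0.15 to 0.21, and the widest bars belong to members with few counts.

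Transcript starts were searched for sequence features that members may share. RefSeq (GRCm38.p6) gave an annotated start for 33 of the 45 members. A C followed by at least 4 pyrimidines stood exactly at the start in 7 of 33 members (21.2%) and in 3.01% of all 27025 genes with an entry, and a run of at least 4 pyrimidines began within 3 bases of it in 16 members (48.5%) and 30.0% of all genes. The start lines below run from 10 bases before the annotated start to 20 bases from it. The pyrimidine run at the start is in capitals. They show these 7 members, then *Rpl27a*, whose run is longest at 16 bases, and *Rpl5* and *Rpl24*, which have none at the annotated base. The run was read from that base only, so its absence does not show that an mRNA lacks a TOP tract. A member with several annotated starts was counted if any of them fitted, and *Rpl35a* fitted only at the start shown. Of the members that rose in *Rps27l-FLAG* IP RPFs, *Rpl6*, *Rpl11*, *Rpl12*, *Rpl18*, *Rpl19* and *Rpl23* have no run there either. *Rpl7a*, *Rpl13*, *Rpl15*, *Rpl27a*, *Rpl28*, *Rpl35a* and *Rpl38*, which also rose, have a run of at least 4 bases. *Rpl10a*, *Rpl27* and *Rpl34* have shorter runs. A link between the run and the IP values was not tested.
Rpl38, chr11:114668570-114668599, plus strand: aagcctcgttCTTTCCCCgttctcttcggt
Rpl15, chr14:18270967-18270996, minus strand: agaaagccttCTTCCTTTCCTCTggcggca
Rpl28, chr7:4792955-4792984, plus strand: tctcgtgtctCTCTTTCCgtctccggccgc
Rpl14, chr9:120571507-120571536, plus strand: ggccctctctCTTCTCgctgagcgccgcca
Rpl35, chr2:39005112-39005141, minus strand: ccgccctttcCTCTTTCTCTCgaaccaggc
Rpl35a, chr16:33056472-33056501, plus strand: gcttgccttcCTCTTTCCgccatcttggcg
Rplp2, chr7:141447641-141447670, plus strand: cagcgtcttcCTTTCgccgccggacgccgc
Rpl27a, chr7:109519185-109519214, plus strand: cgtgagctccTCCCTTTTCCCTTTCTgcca
Rpl5, chr5:107900518-107900547, plus strand: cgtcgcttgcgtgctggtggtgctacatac
Rpl24, chr16:55966265-55966294, plus strand: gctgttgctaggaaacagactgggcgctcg

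Of the 7 members with a TOP-like annotated start, *Rpl35* was not tested and the other 6 had IP over total values of 0.04 (*Rpl14*) to 0.26 (*Rpl38*) in *Rps27-FLAG* and of 0.09 (*Rpl14*) to 0.38 (*Rplp2*) in *Rps27l-FLAG*, on the log2 scale, which lies within the range of all members. In the window from 250 bases before to 50 bases after the start, read on both strands, CCGGAA (the core bound by ETS factors) was present in 19 of 33 members (57.6%) and 16.7% of all genes. AAGATGG (bound by YY1) was present in 3 members (9.09%) and 7.28% of all genes, and TATAAA (the TATA box) in 3 members (9.09%) and 15.7% of all genes. These matches are letters in an annotated window and not measured binding sites.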

How the data were processed

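RPFs of 26 to 34 nt were sequenced from 15 libraries (5 groups of 3 clones). Per the labels and the study's methods, the authors trimmed reads (cutadapt 2.4), removed duplicates by molecular identifiers (UMI-tools 1.0.1), discarded rRNA, tRNA and snRNA reads, aligned the rest with Bowtie2 2.3.4.3 to GRCm38 (mm10) transcripts, kept unique alignments and deposited raw counts of A sites per CDS without the first 15 and last 5 codons. All columns were used (0 left out). CDS, positions and pseudogenes came from GENCODE M21, in which 21713 of 21727 transcripts were found and 14 were not; the authors used another release.

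From these counts, 13 mitochondrially encoded transcripts were left out and a minimum of CPM 2, exceeded in 14 or more of the 15 libraries, was set (10085 transcripts, holding at least 99.4% of each library). TMM factors were computed separately for IP and total libraries. Tests were run with the quasi-likelihood functions of edgeR 4.0.16 (R 4.3.3), with Benjamini-Hochberg adjustment over all tested transcripts and a threshold of 0.05. The designs were those of the study's methods: cell line (9 total libraries), fraction (6 libraries of a line), and cell line, clone within line and fraction within line (12 libraries). Log2 ratios of single clones used 0.5 added counts. Only the blocked fit of IP over total RPFs in *Rps27l-FLAG* and the length correction in it were tried on simulated counts.

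As a check on pairing, values were centred on group means. Residuals of both fractions from the same clone had a correlation r of 0.468 to 0.790 in all 6 clones, those of other clones with the same replicate number, which is the sequencing batch, with a median of 0.443, and those with other numbers with a median of -0.31. Libraries of a group differed by more than sampling noise (chi-square per degree of freedom 1.78 to 10.3).

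Alternatives were voom (limma 3.58.1), DESeq2 1.42.0, its size factors with edgeR, a joint TMM normalization, other filters or none, the clone or replicate as a block or none, a batch-specific IP effect, a limit of 0.25 on the log2 fold change, a loess correction (span 0.5) of each library for CDS length, shares over tested transcripts, windows of 32 nt, and each clone left out in turn. Mismatched windows, pseudogene windows, blocks with a clone left out, and the length correction of the difference were added after seeing the data. Python 3.11.15 with pandas 2.3.3 searched the windows, and matplotlib 3.10.9 drew the figures.

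Named members are those not tested, the 3 highest and 3 lowest in each comparison, the 4 highest and 4 lowest by WT density, the stalk and 5S RNP members, and all called members where 10 or fewer passed. Others, such as the members called in *Rps27l-FLAG* IP over total RPFs and *Rpl6*, were chosen after their values were seen. Members, lists and tests were chosen with earlier results of these data known. 1 symbol that fits the pattern, the own values of 1 tested member (still within the counts and medians) and 1 pair of windows are not reported here.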

Additional observations from a re-analysis of the deposited data

Results flagged for a closer look

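The difference of the IP effects, *Rps27l-FLAG* minus *Rps27-FLAG*, passed the test of the difference itself for 4 members, on the log2 scale: *Rpl5* (0.19), *Rpl3* (0.18), *Rpl24* (0.21) and *Rpl35a* (0.15). Each value compares the ratio of IP to total RPFs between the lines, and it was above 0 for 37 of the 40 members. The threshold was missed by *Rpl24* with voom (adjusted p = 0.0555) and with no filter on low counts (adjusted p = 0.0587), and by *Rpl35a* with DESeq2 (adjusted p = 0.232), which gave no adjusted p for *Rpl24*.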

How the results depend on the processing

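*Rplp2*, *Rpl26*, *Rpl37*, *Rpl37a* and *Rpl36a* had at most 217 counts in any library, which limits their precision. The total RPF comparisons gave 0 members under each alternative run. In *Rps27-FLAG* IP over total RPFs the count of 0 became 31 with the replicate block and 14 with block and length correction, and ranged over 0 to 25 with a clone left out (28 to 33 with the block). The median fell from 0.20 to 0.054 with the length correction and 0.053 with block and length correction. In *Rps27l-FLAG* the count of 22 became 0 with the length correction, and ranged over 0 to 22 with a clone left out (29 to 31 with the block), and the median of 0.31 became 0.18 with the length correction and 0.19 with block and length correction. The difference of the IP effects gave 4 members, 2 with DESeq2, 10 with block and length correction, 0 with no replicate block, 19 with a batch-specific IP effect, 0 with the fold limit, and 1 to 9 with a clone left out. The causes were not tested, except that leaving out a clone lowers the number of libraries.

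Values near 0 changed sign. *Rpl11* in *Rps27l-FLAG* over WT total RPFs (0.00) became -0.00032 with voom, -0.0011 with DESeq2, -0.0046 with its size factors, -0.0042 with CPM over 2 in at least 3 libraries, -0.0080 with no filter, -0.012 with the length correction and -4.2e-06 with the replicate block. In *Rps27-FLAG* IP, *Rpl3* became 0.024 with DESeq2, 0.026 with its size factors, 0.012 with TMM over all libraries, 0.015 with the length correction and 0.012 with block and length correction, which also took *Rplp2* to -0.0077. In *Rps27l-FLAG* IP, *Rpl24* became -0.025 with the length correction and -0.023 with block and length correction. In the difference, the latter took *Rpl21* to 0.0056 and *Rplp1* to 0.022.

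With each clone left out in turn, values that changed sign ranged as follows in *Rps27-FLAG* over WT total RPFs: *Rpl23* -0.036 to 0.13, *Rpl35a* -0.017 to 0.15, *Rpl17* -0.011 to 0.14, *Rplp0* -0.017 to 0.058, *Rplp1* -0.12 to 0.0099, *Rplp2* -0.19 to 0.26, *Rpl12* -0.047 to 0.040, *Rpl5* -0.031 to 0.11 and *Rpl11* -0.036 to 0.072. In *Rps27l-FLAG* over WT they were *Rplp2* -0.50 to 0.018, *Rpl31* -0.044 to 0.072, *Rpl39* -0.038 to 0.072, *Rplp0* -0.10 to 0.0029, *Rplp1* -0.085 to 0.060 and *Rpl11* -0.011 to 0.02. Between the tagged lines they were *Rpl30* -0.21 to 0.014, *Rplp1* -0.040 to 0.10, *Rpl37a* -0.14 to 0.18, *Rpl5* -0.13 to 0.01 and *Rpl11* -0.072 to 0.036. In *Rps27-FLAG* IP over total RPFs, block included, they were *Rpl3* -0.02 to 0.02, *Rpl37* -0.087 to 0.73 and *Rplp2* -0.044 to 0.50, and in the difference *Rpl21* -0.10 to 0.072, *Rplp1* -0.18 to 0.12 and *Rplp2* -0.10 to 0.44.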

Other observations

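The transcripts most like the members across the 15 libraries, by Pearson's r of log2 normalized CPM with the members' median, were mRNAs of the small subunit: *Rps13* (r = 0.99), *Rps3a1* (0.99) and *Rps25* (0.99), which share their libraries and normalization with the members. Of the 40 tested members 27 had r over 0.9 with the members' own median (median r 0.97). *Rpl41* (0.43), *Rpl24* (0.50) and *Rpl5* (0.50) were lowest.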
